A study of Mus musculus with 2 samples.

Results

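Open chromatin was examined around 8 genes: the GATA factor genes Gata1, Gata2, Gata3, Gata4 and Gata6, their cofactor genes Zfpm1 and Zfpm2, and Gfi1b. They were taken from 21884 protein-coding genes of the mouse annotation. They were listed by name, and every accessible region in the gene body or within 50 kb of any annotated transcript start of a gene was kept. That gave 158 of 99252 regions. DNase-seq, which maps the places where DNase I can cut the DNA because no nucleosome covers it, had been run on liver of mouse embryos at 13.5 days of age. There was 1 group of 2 libraries, labelled as biological replicates 1 and 2 of 1 donor entry. The animals were of a mixed C57BL/6N,129 background and wild type except that they carried the A85 YAC (yeast artificial chromosome) in multiple copies. What that YAC contains is not stated in the labels. The labels do not record the sex of the embryos, so the number of copies of the X-linked gene Gata1 behind a value is not known.

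GATA factors are zinc finger proteins that bind the short DNA word GATA and open or close the chromatin around it. In blood, GATA2 acts in stem and progenitor cells and GATA1 replaces it as cells become red cells. GATA1 also acts in megakaryocytes and mast cells. FOG1, the product of Zfpm1, does not bind these sites itself but docks on GATA1 and brings corepressors to it, and GFI1B is a repressor that acts with GATA1 in red cell and platelet formation. GATA3 is known from T cells, while GATA4, GATA6 and FOG2 (the product of Zfpm2) are known from heart development, and both of these GATA factors also from the endoderm. At this age the liver is the main site of red cell formation in the embryo. Cell types were not separated, so fewer cells of a type and less open chromatin per cell cannot be told apart.

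Replicate 1 had 76130 peaks and replicate 2 had 73852, and 45831 merged regions held peaks of both replicates (called shared). The peak values have no named scale, but within each library all were whole multiples of a fixed step, so that a value can be read as a count of cuts or reads. The median peak held 69 such counts in replicate 1 and 126 in replicate 2. Bracketed ranges beside values are 95% Poisson intervals of these counts, and those beside shares are 95% Wilson intervals. Both cover counting error only. Over all 21884 protein-coding genes, 58.4% had a shared region at the promoter and 72.1% had at least 1 distal one. Of the 10 erythroid marker genes, 9 had a shared region at the promoter and the tenth, Alas2, had 4 distal ones. Of the 8 hepatoblast markers, 3 had a shared promoter region, and Alb, which encodes albumin, had no shared region at all. Alb did have a promoter region of replicate 1 alone, and Ttr, Apoa1 and Hnf4a, like Alas2, had one of replicate 2 alone. A shared promoter region was found for 3 of the 6 megakaryocyte markers, 3 of the 5 stem and progenitor markers, 0 of the 5 mast cell markers, 3 of the 5 T cell markers, 1 of the 6 endothelial markers and 3 of the 6 stellate and mesenchymal markers. Each of these genes had a shared region of some kind except Pf4, Fcer1a, Cd8a, Emcn and Wt1.

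The regions that carried the results are shown first, all on the plus strand of build GRCm38.p6 (mm10). The highest distal regions of Gata1, Zfpm1, Gata2 and Gfi1b are printed because they had the highest values outside the promoters. Capitals mark the GATA motif, searched on both strands as the letters AGATAA, where the first A may be T and the last A may be G. The region of Gfi1b is shown by its central 300 bases and the others are whole.
Gata1, 3471 bp upstream of its nearest start (chrX:7971381-7971620): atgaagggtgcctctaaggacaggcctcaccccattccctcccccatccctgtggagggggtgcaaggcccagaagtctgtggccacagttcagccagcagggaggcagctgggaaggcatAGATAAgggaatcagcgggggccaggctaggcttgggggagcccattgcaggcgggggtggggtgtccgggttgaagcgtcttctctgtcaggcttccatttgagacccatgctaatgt
Zfpm1, intron (chr8:122321721-122322020): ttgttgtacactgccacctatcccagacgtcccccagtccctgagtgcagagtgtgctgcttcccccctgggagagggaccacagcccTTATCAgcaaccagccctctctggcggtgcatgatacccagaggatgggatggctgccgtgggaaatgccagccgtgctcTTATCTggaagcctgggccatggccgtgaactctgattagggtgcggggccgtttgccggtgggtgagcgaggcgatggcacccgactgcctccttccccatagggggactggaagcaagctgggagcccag
Gata2, upstream (chr6:88189561-88189800): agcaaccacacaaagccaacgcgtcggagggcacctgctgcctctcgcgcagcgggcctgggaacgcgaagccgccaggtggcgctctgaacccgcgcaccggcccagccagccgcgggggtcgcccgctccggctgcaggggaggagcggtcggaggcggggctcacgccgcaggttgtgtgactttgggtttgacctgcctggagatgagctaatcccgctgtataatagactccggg
Gfi1b, downstream (chr2:28602221-28602520): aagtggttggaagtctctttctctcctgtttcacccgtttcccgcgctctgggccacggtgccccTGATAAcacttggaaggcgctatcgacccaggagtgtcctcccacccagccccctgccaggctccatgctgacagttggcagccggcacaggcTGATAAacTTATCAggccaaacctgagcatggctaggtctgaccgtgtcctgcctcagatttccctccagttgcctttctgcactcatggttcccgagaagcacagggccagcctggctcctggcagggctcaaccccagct
The Gata1 region held 1 match, that of Zfpm1 2 and that of Gfi1b 3, of which 2 stand back to back with 2 bases between them. The Gata2 region held 0 matches. Such a match is a description of the letters and does not show that a factor is bound. In windows of 240 bases centred on all 25847 shared distal regions, 39.2% held a GATA motif, and in windows of 300 bases 45.5% did.

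Footprints are short stretches inside a peak that DNase I cut less than their surroundings, as happens where a protein sits on the DNA. In the regions of the 8 genes, 13 footprints found in both replicates held a GATA motif. Overlapping footprints of the replicates were joined and searched with 5 bases on each side. At Zfpm1 (chr8:122349805-122349836) the motif lay in the footprint of replicate 1 but not in that of replicate 2. Of the 13, 10 are printed with 5 bases on each side, for the highest regions and the composite sites, and 3 more of Zfpm1 are not shown. The first line is 1 intronic stretch of Zfpm1 with 4 such footprints in a row.
Zfpm1, intron, 4 footprints (chr8:122309444-122309597): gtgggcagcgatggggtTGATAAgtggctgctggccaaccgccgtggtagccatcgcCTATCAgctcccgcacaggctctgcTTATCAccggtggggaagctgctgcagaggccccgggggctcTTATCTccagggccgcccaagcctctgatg
Gata1, upstream (chrX:7971477-7971542): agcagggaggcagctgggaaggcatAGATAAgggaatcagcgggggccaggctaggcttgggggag
Gfi1b, downstream (chr2:28602362-28602401): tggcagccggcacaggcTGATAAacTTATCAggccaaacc
In the next 4, the capitals mark the letters of a composite site instead, a CTG followed after 7 to 9 bases by GATA, on either strand (on the minus strand the letters read TATC and then CAG). This is the arrangement bound by TAL1, a partner of GATA1, together with a GATA factor. Windows of 300 bases centred on the shared distal regions held it in 15.1% of cases. In all 4 the spacing was 9 bases. In the last of the 4, the GATA letters of the composite are followed by C, so they are not a GATA motif as searched above.
Gata2, intron (chr6:88203176-88203211): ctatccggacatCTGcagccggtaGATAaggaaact
Zfpm1, intron, nearest to the start (chr8:122284830-122284868): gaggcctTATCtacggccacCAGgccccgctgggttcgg
Zfpm1, intron, second (chr8:122287106-122287146): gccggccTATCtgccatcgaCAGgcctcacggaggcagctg
Zfpm1, intron, highest distal region (chr8:122321803-122321852): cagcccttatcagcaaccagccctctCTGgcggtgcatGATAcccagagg
A composite site in an intron of Gata2 is known in mice as an enhancer needed by blood stem cells. By contrast, 2 stretches of Gata1 held repeated GATA motifs in shared regions but outside the shared footprints. The first lies upstream of an internal start of the gene, and the second lies in an intron.
Gata1, promoter, paired motifs (chrX:7968432-7968466): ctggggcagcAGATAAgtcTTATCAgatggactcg
Gata1, intron, repeated motifs (chrX:7966264-7966347): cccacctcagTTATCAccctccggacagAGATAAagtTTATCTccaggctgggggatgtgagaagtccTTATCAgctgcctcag
The stretches with several motifs or a composite site, and those 2 of Gata1, were chosen after their values had been seen. In the first of the 2, 1 of 2 motifs lay in a footprint of replicate 1 alone, and in the second none of the 4 lay in a footprint of either replicate.

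The GATA factor genes, their cofactor genes and Gfi1b differed widely in how much open chromatin lay around them, from Zfpm1 with 25 shared regions to Gata6 with 0. Within 1 kb of a transcript start, 7 of the 8 had a shared region, Gata6 being the exception, and 58.4% of all protein-coding genes had one. Together they had 13 shared promoter regions and 50 shared distal regions. A distal region lies in the gene body or within 50 kb of a start and more than 1 kb from every protein-coding start. Zfpm1 had 21 of the 50, Gata1 and Gfi1b 9 each, Gata2 5, Zfpm2 4, Gata3 and Gata4 1 each and Gata6 0, against a median of 2 over all genes. As few as 0.114% of genes (25 of 21884) had at least 21 distal shared regions, 3.36% had at least 9, 16.9% had at least 5, 25.4% had at least 4 and 72.1% had at least 1. These counts and shares are not scaled to the length of the window, which ran from 107 kb at Gfi1b to 500 kb at Zfpm2. Per 100 kb, Zfpm1 had 13.8 distal shared regions, Gfi1b 8.44, Gata1 7.90, Gata2 4.52, Gata3 0.86, Zfpm2 0.80 and Gata4 0.63. The counts depended on the library and the list. With the peaks of replicate 2 alone Zfpm1 had 47 distal regions, Gata1 13, Gata6 6, Gata3 3 and Gata4 2. With those of replicate 1 alone Zfpm1 had 26, Gata1 11, Gata3 and Gata4 2 each and Gata6 1. The shorter peak lists left Zfpm1 with 14 shared distal regions, Gata1 with 4, Gata2 with 3 and Zfpm2 with 1. Zfpm1 had the highest distal count of the 8 in all 11 settings of the peak lists, windows and overlaps that were run for it.

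**Figure D1:**
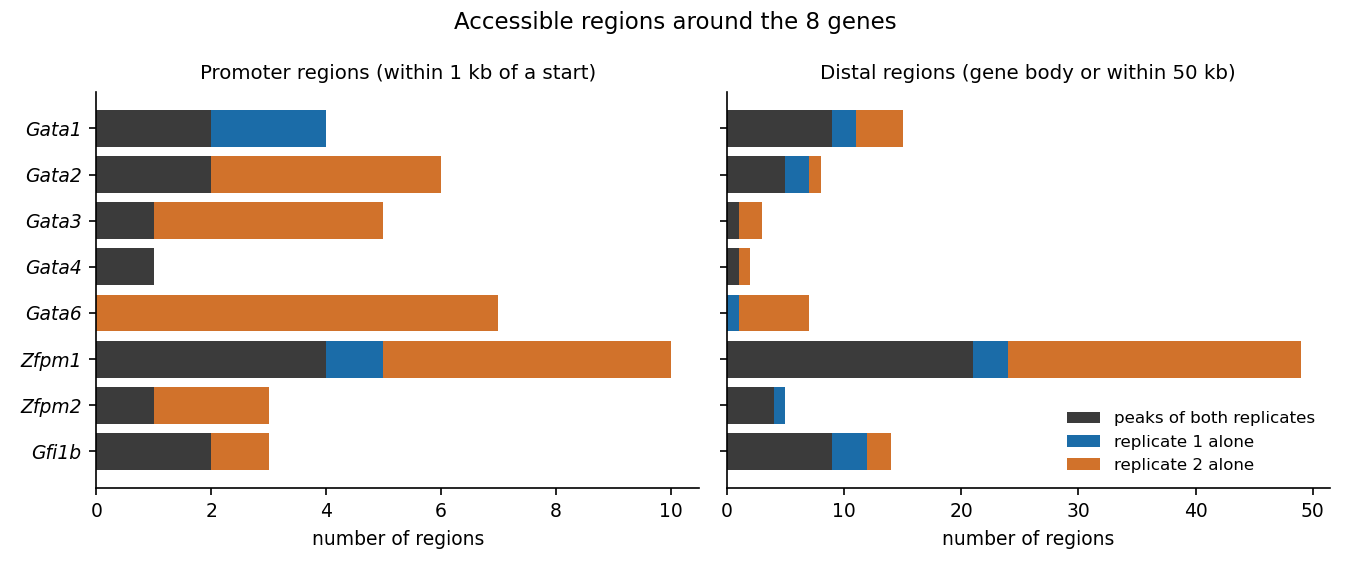
Number of promoter regions (left) and distal regions (right) per gene, split by whether both replicates or 1 alone had a peak there. Zfpm1 had 21 shared distal regions, Gata1 and Gfi1b 9 each, and all 7 promoter regions of Gata6 came from replicate 2 alone.

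Distance alone gave these regions to a gene. The nearest protein-coding start belonged to the gene itself for 19 of the 21 distal shared regions of Zfpm1, 5 of the 9 of Gata1, 2 of the 9 of Gfi1b, 2 of the 5 of Gata2, 3 of the 4 of Zfpm2 and neither of the single ones of Gata3 and Gata4. The Zfpm1 locus is also spanned by Gm20388, a long protein-coding gene model that includes it, so regions upstream and downstream of Zfpm1 are annotated as introns of that model.

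Zfpm1, the FOG1 gene, had the most open promoter of the 8. Its highest region (chr8:122281321-122281600, 541 bp upstream of a start) had 22.5 (21.5 to 23.6) in replicate 1 and 20.3 (19.6 to 21.02) in replicate 2. Among the highest promoter regions of the 12774 genes that have one, it lay at percentile 99.2 in replicate 1 and 99.8 in replicate 2. A neighbouring region, 21 bp upstream of the start, had values of 19.1 and 16.3 in replicates 1 and 2. The pair held 15 of the 18 shared footprints at the promoters of this gene. GATA motifs were found in 0 of the 18, which allows a share of up to 16.7%, taken as 3 divided by the number of footprints. The word CCNCNCCC (both strands), bound by KLF factors such as the erythroid KLF1, was in 7 of them, a share of 38.9% (20.3% to 61.4%), against 24.8% of the promoter footprints in all other shared regions. The sequence of the highest promoter region is shown with that word in capitals, where matches that overlap run together.
Zfpm1, promoter (chr8:122281321-122281600): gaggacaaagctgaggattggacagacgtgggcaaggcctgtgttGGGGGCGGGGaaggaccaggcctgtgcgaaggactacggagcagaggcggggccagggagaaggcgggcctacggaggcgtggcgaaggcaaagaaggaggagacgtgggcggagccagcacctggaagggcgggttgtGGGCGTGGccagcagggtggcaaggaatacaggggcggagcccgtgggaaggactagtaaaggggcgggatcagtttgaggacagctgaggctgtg
It held 3 matches on the minus strand. In windows of 280 bases centred on all 19984 shared promoter regions, 64.1% held the word.

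Gata1, the master factor of red cell formation, had a promoter of modest value. Its highest promoter region (chrX:7967881-7968100) lies over an internal start of the gene and had 3.24 (2.86 to 3.66) in replicate 1 and 2.10 (1.89 to 2.33) in replicate 2. It ranked at percentile 32.3 in replicate 1 and 24.7 in replicate 2, below the middle of all genes with a shared promoter region. Both promoter regions of Gata1 sat at this internal start, and its annotated 5′ end had none that was shared. The region with the paired GATA motifs, 231 bp upstream of that start, had 2.25 in replicate 1 and 1.27 in replicate 2.

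The other promoters were in the same range or lower. Gata3, the T cell factor, had 3.14 (2.76 to 3.55) in replicate 1 and 2.92 (2.66 to 3.19) in replicate 2, in a region 941 bp upstream of an internal start. That region counted as a promoter through the wider peak of replicate 2, and with the peaks of replicate 1 alone Gata3 had none. Gfi1b had 2.37 (2.04 to 2.73) in replicate 1 and 1.97 (1.77 to 2.20) in replicate 2 in the region over its start. Its other shared promoter region, 619 bp upstream of a start, had 1.86 (1.57 to 2.19) in replicate 1. In replicate 2 that region had 2.16 (1.94 to 2.40), the highest promoter value of Gfi1b there. Gata2 had 1.22 (0.984 to 1.48) in replicate 1 and 1.41 (1.24 to 1.61) in replicate 2. Gata4, an endoderm and heart factor, had 0.557 (0.405 to 0.748) in replicate 1 and 0.839 (0.705 to 0.991) in replicate 2. Zfpm2 was lowest, with 0.380 (0.256 to 0.542) in replicate 1 and 0.513 (0.410 to 0.634) in replicate 2. In both replicates Zfpm1 came first, then Gata1, Gata3 and Gfi1b in an order that differed between the replicates, then Gata2, Gata4 and Zfpm2. The intervals of Gata1 and Gata3 overlapped in replicate 1 but not in replicate 2, where Gata3 was higher. Those of Gata1 and Gfi1b overlapped in replicate 2 but not in replicate 1, where Gata1 was higher. Gata4 and Zfpm2 had overlapping intervals in replicate 1 only, and Gata2 lay above both without overlap in each replicate.

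**Figure D2:**
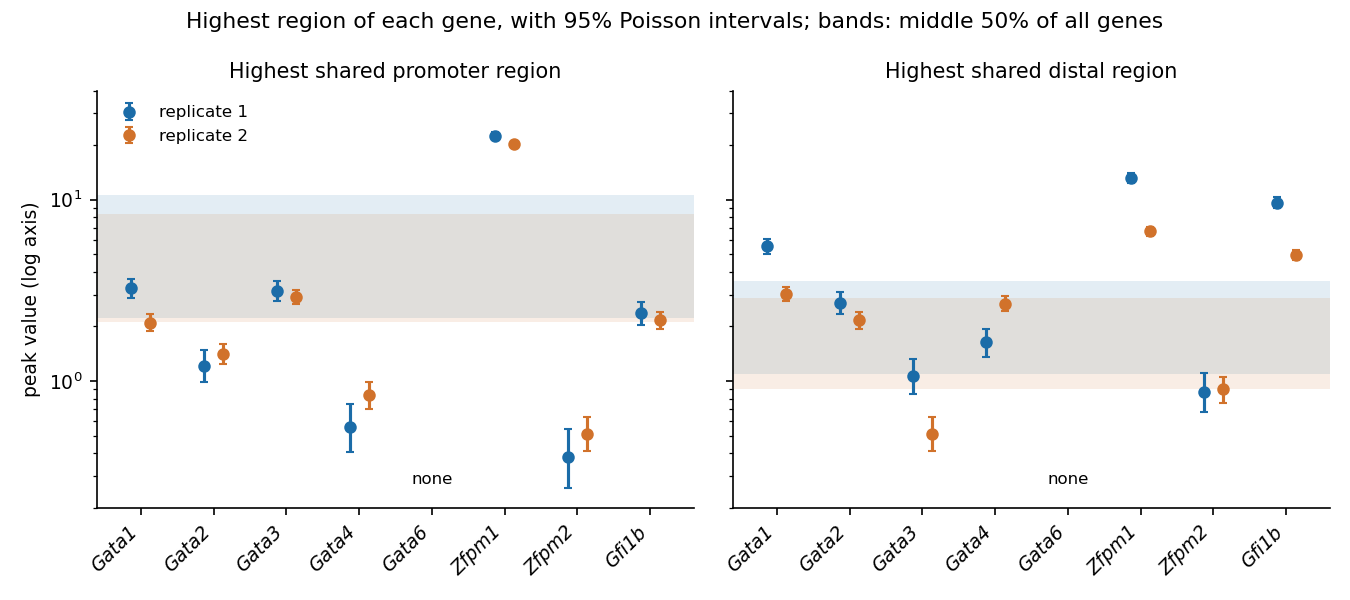
Highest shared promoter region (left) and distal region (right) of each gene in each replicate, on a log axis; points are peak values, bars are 95% Poisson intervals and bands span the middle 50% of all genes with such a region in each replicate. Zfpm1 stands above the band on both sides, Gata1 and Gfi1b above it only for the distal region, and Gata6 has no shared region of either kind.

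The distal regions gave a different order from the promoters. The highest one of Zfpm1 (chr8:122321721-122322020, in an intron) had 13.2 (12.4 to 14.0) in replicate 1 and 6.68 (6.29 to 7.09) in replicate 2. The highest of Gfi1b (chr2:28602201-28602540, intergenic, 12865 bp downstream of a start) had 9.64 (8.97 to 10.4) in replicate 1 and 4.96 (4.62 to 5.31) in replicate 2. The highest of Gata1 (chrX:7971381-7971620, in the intron before the internal start) had 5.56 (5.05 to 6.10) in replicate 1 and 3.01 (2.75 to 3.29) in replicate 2. Other distal regions of Gata1, at 14710, 22590 and 39170 bp upstream of its 5′ end, had 1.52, 0.962 and 0.671 in replicate 1 and 0.863, 0.658 and 0.700 in replicate 2. At Gata1, Gfi1b, Gata2, Gata4 and Zfpm2 the highest distal region had a higher value than the gene's own promoter regions, in both replicates. At Zfpm1 and Gata3 it had a lower value than the highest promoter region, in both replicates. The highest distal regions of Zfpm1, Gfi1b and Gata1 lay at or above percentile 96.1 of all shared distal regions in replicate 1. In replicate 2 they lay at or above percentile 92.5. This ranks single regions, while the promoter percentiles above rank the highest region of each gene. Among single shared promoter regions, the highest of Gata1 lay at percentile 54.9 in replicate 1 and 46.2 in replicate 2. Over genes with a shared distal region, the upper quartile of their highest values was 3.56 in replicate 1 and 2.86 in replicate 2. Zfpm1, Gfi1b and Gata1 all exceeded it, Gata1 by the least.

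Further distal regions of Zfpm1 were high as well. Its intronic region with 4 GATA footprints (chr8:122309361-122309680) had 10.04 in replicate 1 and 6.43 in replicate 2. The next intronic one (chr8:122286981-122287240), which holds a composite site, had 8.26 and 5.08 in replicates 1 and 2. An upstream region (chr8:122273241-122273440, 8701 bp from the start) had 6.10 and 3.96, and an intronic one (chr8:122294221-122294580) had 5.23 and 2.85. These 4 and the highest one were all lower in replicate 2 than in replicate 1. By contrast the region 12421 bp upstream had 3.28 in replicate 1 and 4.32 in replicate 2.

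Gfi1b, the repressor gene, had its open chromatin mainly downstream. Beside the highest region, one at 17005 bp (chr2:28597681-28598400) had 7.48 in replicate 1 and 2.67 in replicate 2, and those at 22285 bp and 18125 bp had 4.15 and 3.46 in replicate 1 and 2.82 and 3.19 in replicate 2. The intronic region (chr2:28616901-28617280) had 5.08 and 3.36. Of these downstream regions only the highest had the gene itself as its nearest start, the next start for the others being that of Gtf3c5. The core motif of CTCF, a protein that anchors chromatin loops, was found in 3 of the 18 distal footprints of Gfi1b (16.7%), against 17.4% of those in all other shared distal regions.

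Gata2, the factor of stem and progenitor cells, had lower distal values. Its highest region (chr6:88189561-88189800, 4091 bp upstream) had 2.70 (2.35 to 3.08) in replicate 1 and 2.16 (1.94 to 2.40) in replicate 2, and its sequence was rich in CpG (0.88 of the number that its C and G content predicts) with no GATA motif. The intronic region with the composite site (chr6:88203081-88203300) had 1.68 (1.41 to 1.99) in replicate 1 and 0.736 (0.612 to 0.879) in replicate 2. Relative to the median ratio of all shared regions it was lower in replicate 2 by a log2 difference of -1.01. The other 3 distal regions of Gata2 lay in or next to Dnajb8, between 38216 and 49659 bp downstream, with values of 0.861 to 1.57 in replicate 1 and 0.785 to 1.08 in replicate 2.

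In a wider window of 100 kb Gata2 had 13 shared distal regions, against 5 within 50 kb, and Gata4 had 4, against 1. Of the 8 regions added, 6 lay 69631 to 87551 bp upstream, nearer to the start of Rpn1. The highest of them (chr6:88106101-88106340) had 6.20 in replicate 1 and 5.33 in replicate 2, more than any region of Gata2 within 50 kb. Another (chr6:88116381-88117260, 76631 bp upstream) had 2.10 and 1.53 and held 1 shared footprint with a GATA motif, the only such footprint among the 15 regions that the wider window added for the 8 genes. A far upstream enhancer of Gata2 is known from blood progenitors of mice. The footprint is shown with the motif in capitals.
Gata2, far upstream (chr6:88116937-88116970): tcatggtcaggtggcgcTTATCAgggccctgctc

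**Figure D3:**
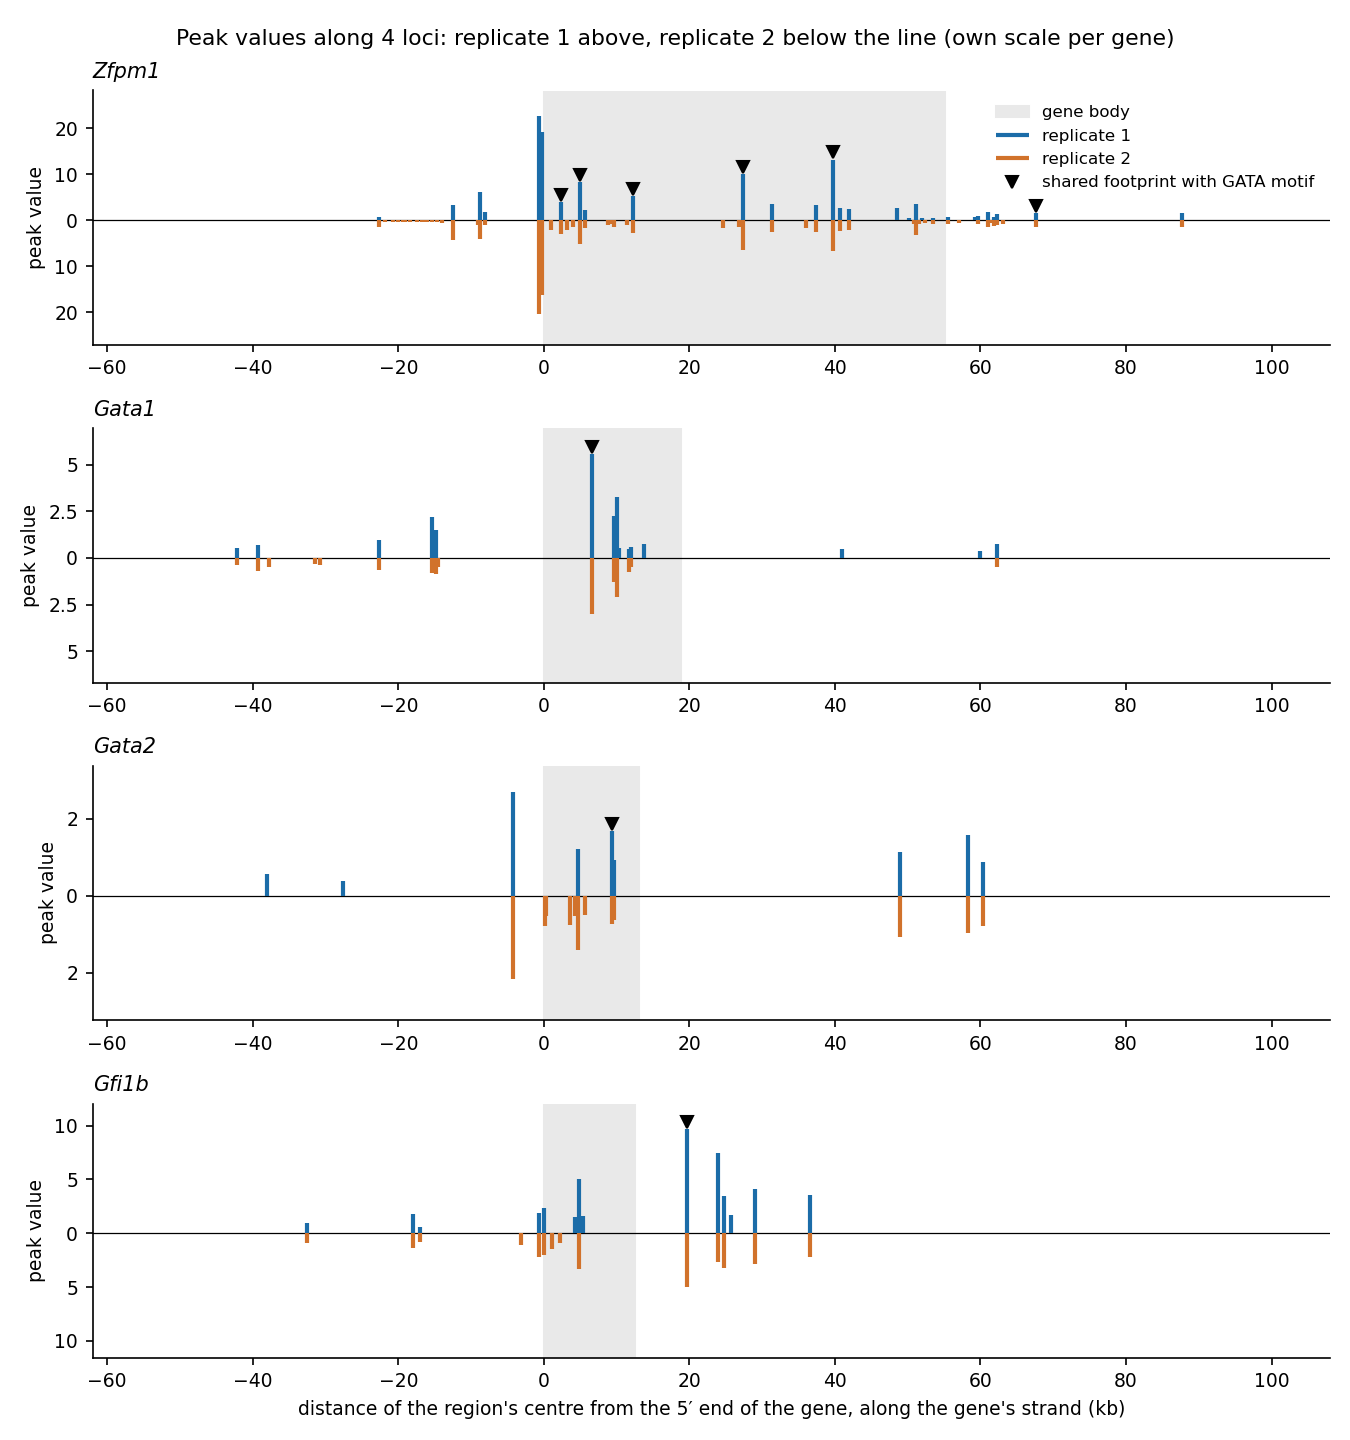
Peak values of all promoter and distal regions of Zfpm1, Gata1, Gata2 and Gfi1b, against the distance of the region's centre from the 5′ end of the gene in kb; replicate 1 is drawn upwards, replicate 2 downwards, the gene body is grey and triangles mark regions with a shared footprint that holds a GATA motif. Zfpm1 has triangles at 6 regions and the other 3 genes at 1 region each.

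Gata3, Gata4 and Zfpm2 had little distal signal. The single distal region of Gata3 had 1.06 in replicate 1 and 0.513 in replicate 2. The single one of Gata4, which lies downstream near Neil2, had 1.63 in replicate 1 and 2.67 in replicate 2. The 4 distal regions of Zfpm2, which lie in its body 160049 to 414751 bp downstream of a start, reached 0.873 in replicate 1 and 0.899 in replicate 2. The windows of Gata4 also held 5 shared promoter regions of its neighbours Fdft1 and Neil2, which were not counted for it.

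Gata6, a factor of endoderm and mesoderm, had no shared region of its own. Replicate 2 alone had 7 regions within 1 kb of its starts and 6 more just upstream, with values of 0.374 to 1.04 at the promoter and 0.392 to 0.543 upstream, that is 62 to 173 counts and 65 to 90 counts. As many as 7 promoter regions of replicate 2 alone were found in 0.165% of genes. That share is not scaled to the number of starts, of which Gata6 has 6. Bases with a false discovery rate under 0.05, as deposited by the authors, covered 2211 of the 6976 bp around the starts in replicate 2 and 0 in replicate 1. In replicate 1, 57.3% of all peaks had a value under 1.04, the highest of Gata6. Of the 7 regions, 5 were rich in CpG (more than 0.6 of the predicted number). The same held for 12 of the 23 promoter regions of replicate 2 alone over the 8 genes (52.2%), and for 44.1% of such regions over all genes.

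Regions seen in replicate 2 alone were also frequent at the other genes. Of the 8 genes, 6 had such a region at a promoter, as did 24.1% of all genes, and 2 had one of replicate 1 alone, as did 20.6%. Gata2 and Gata3 had 4 each at their promoters, a number reached by 1.35% of genes. That share is again not scaled to the number of starts, 4 for Gata2 and 6 for Gata3. Zfpm1 had 5 at its promoters and 25 distal ones, with values up to 2.00 and 2.02. In replicate 1 the regions of Gata2, Gata3 and Gata6 seen in replicate 2 alone held no base with a false discovery rate under 0.05. Those of Zfpm1 did, at 4 of its 5 promoter regions (396 bp in all) and at 1 of its 25 distal ones (196 bp), as did 1 of the 2 promoter regions of Zfpm2 (11 bp). The absence of a peak from a list therefore does not show that the region was closed in that library. Together the 8 genes had 23 promoter regions in replicate 2 alone and 3 in replicate 1 alone, where all regions numbered 7970 and 5043. They had 41 distal regions in replicate 2 alone, 25 of them at Zfpm1, and 12 in replicate 1 alone. Over all distal regions the order was the opposite, with 17283 in replicate 2 alone and 23125 in replicate 1 alone. GATA motifs were found in 12.2% of those 41 and in 50% of those 12, where the shares over all distal regions were 15.5% for replicate 2 alone and 39.2% for replicate 1 alone. The depth of the libraries moves with this result: if the values are CPM, the steps correspond to 166 M counts in replicate 2 and 79.0 M in replicate 1. Its part in the result was not tested.

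Shared footprints followed the shared regions. There were 101 in the regions of the 8 genes, of 72454 over all shared regions, with 30 at promoters and 71 at distal regions. Zfpm1 had 51, Gfi1b 22, Gata1 12, Gata2 7, Gata3 4, Zfpm2 3, Gata4 2 and Gata6 0. At least 1 shared footprint was found in 47 of the 63 shared regions (74.6%), against 66.4% of all shared regions. At promoters it was 9 of 13, where 68.3% of all had one, and at distal regions 38 of 50, where 64.9% had one.

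GATA motifs were more frequent in the distal footprints of Zfpm1 than in those of other regions. The other 7 genes had too few footprints to place their share closely. Over the 8 genes, 13 of 71 distal footprints held one, a share of 18.3% (11.02% to 28.8%), where 5.58% of all shared distal footprints did. The share was 5.55% (5.29% to 5.82%) of 28524 footprints in all other shared distal regions. Counted by region, 9 of 50 distal regions had such a footprint, where 5.65% of all did, and 0 of 13 promoter regions, where 2.79% did. Zfpm1 supplied 10 of the 13, in 33 footprints (30.3%, 17.4% to 47.3%), spread over 6 regions. Of these 10, 4 lay in 1 intronic region, while the intervals treat footprints as independent. Without Zfpm1, 3 of 38 held a GATA motif (7.89%, 2.72% to 20.8%), 1 each at Gata1, Gata2 and Gfi1b. For Gata1 and Zfpm1 together the share was 11 of 41 (26.8%, 15.7% to 41.9%), against 2 of 30 (6.67%, 1.85% to 21.3%) for the other 6. In the promoter footprints of the 8 genes, 0 of 30 held a GATA motif, which allows a share of up to 10% (3 divided by 30). Of those of all other promoter regions, 1.34% held one.

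The share depended on the library. With the peaks and footprints of replicate 2 alone it was 5.48% (16 of 292; 3.40% to 8.71%) for the 8 genes, against 2.82% for all other distal regions. With those of replicate 1 alone it was 16.7% (22 of 132; 11.3% to 23.9%), against 7.54%. Zfpm1 had 6.43% (11 of 171) in replicate 2 and 23.0% (14 of 61) in replicate 1. Both the members and the rest were lower in replicate 2, whose list has 230992 footprints against 151079 in replicate 1.

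**Figure D4:**
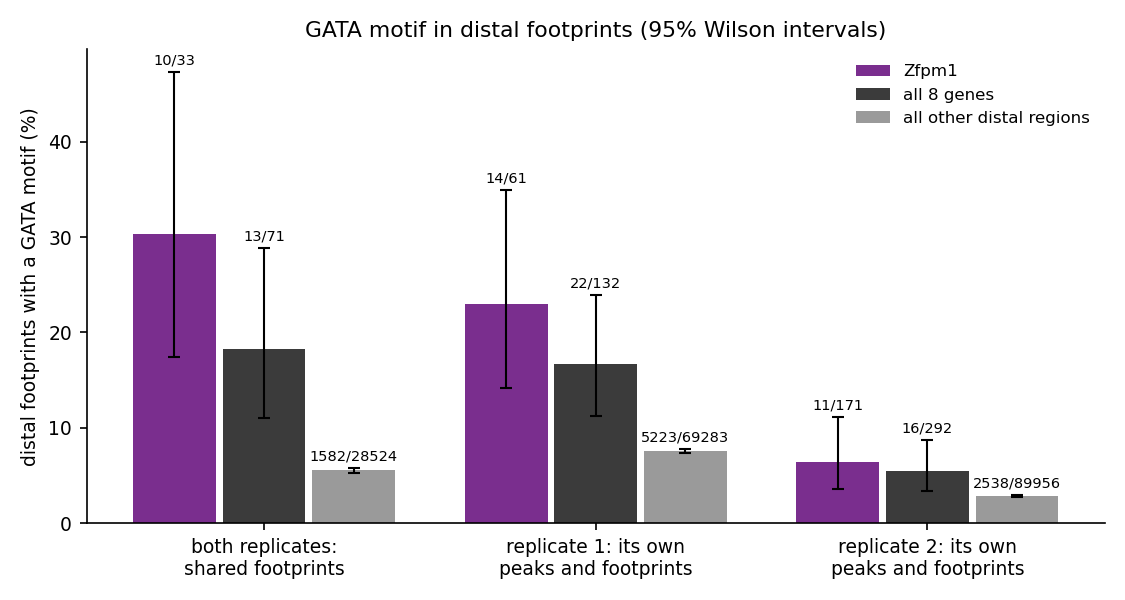
Percentage of distal footprints that hold a GATA motif for Zfpm1, for all 8 genes and for all other distal regions, with 95% Wilson intervals and counts above the bars; groups of bars are shared footprints, then the peaks and footprints of replicate 1 and of replicate 2 alone. The 8 genes reach 18.3%, 16.7% and 5.48% in the 3 groups, and the other regions 5.55%, 7.54% and 2.82%.

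Most GATA motifs in these regions lay outside the shared footprints. The shared promoter and distal regions of the 8 genes held 62 matches, of which 14 lay in a shared footprint, 23 in a footprint of replicate 1 and 17 in one of replicate 2. Zfpm1 had 33 matches with 10 in shared footprints, Gfi1b 9 with 2, Gata1 8 with 1, Gata2 4 with 1, Zfpm2 7 with 0 and Gata3 1 with 0. Of the distal regions 25 of 50 held the motif somewhere, against 38.0% of all shared distal regions, and their median width was 230 bp, against 200 bp. In a shared footprint 9 of 50 held it, against 5.65%. Thus most distal regions with the motif did not have it in a shared footprint, here and over all regions. Of the promoter regions 2 of 13 held it, against 20.2%. The CTG and GATA composite was in 4 of the 71 distal footprints (5.63%, 2.21% to 13.6%), against 1.79% of the rest. Of these, 3 were at Zfpm1, and without Zfpm1 it was 1 of 38 (2.63%). The plain E-box, CANNTG, the word bound by TAL1 and related factors, was in 15 of 71 distal footprints (21.1%), against 17.4% of the rest. The CTCF core was in 9 of 71 (12.7%), against 17.4%.

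Replicate 2 had lower values than replicate 1 at many of these regions even after the overall ratio between the libraries was removed. The median ratio of replicate 2 to replicate 1 over all 45831 shared regions was 0.878. Relative to it, 34 of the 50 distal regions of the 8 genes were lower in replicate 2, where 53.8% of all shared distal regions were, and the median log2 difference was -0.18 against -0.06. At promoters 5 of 13 were lower, where 45.1% of all were. Gata1 was lower in 9 of its 11 regions with a median of -0.44, Gfi1b in 7 of 11 with a median of -0.17, and Zfpm1 in 15 of 25 with a median of -0.05. Both regions of Gata4 were higher in replicate 2, with log2 differences of 0.78 and 0.90. The 2 regions with the greatest difference were those of Gfi1b at 17005 bp downstream (-1.30) and of Gata1 at 15070 bp upstream (-1.24), where replicate 1 had 2.21 and replicate 2 had 0.821.

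**Figure D5:**
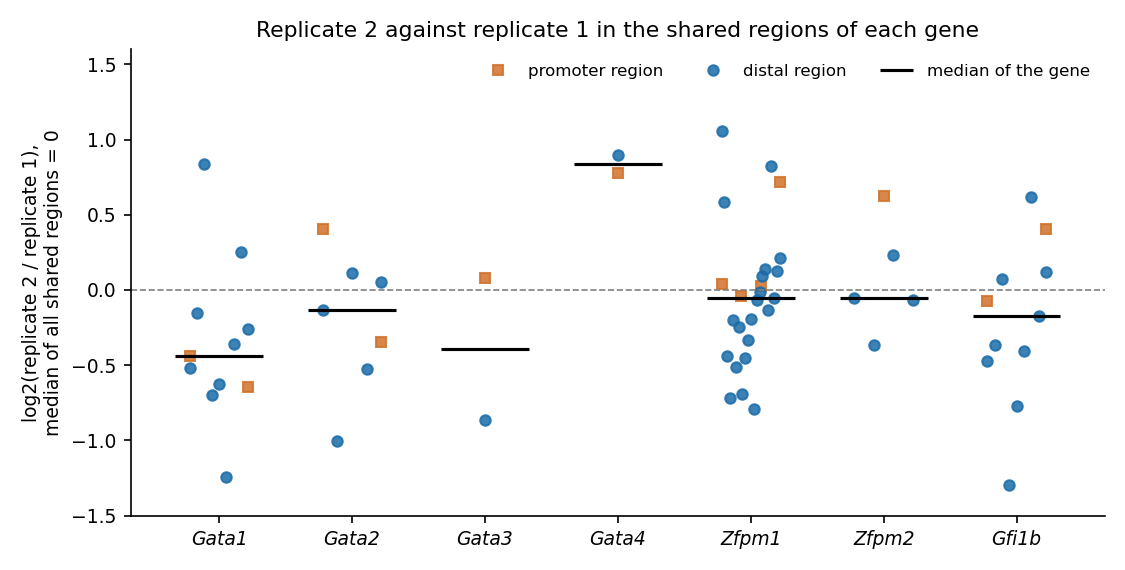
Log2 ratio of replicate 2 to replicate 1 in each shared region, with the median of all shared regions set to 0; squares are promoter regions, circles distal regions and lines the median of a gene. Gata1 lies mostly below 0 with a median of -0.44, and both regions of Gata4 lie above 0.

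By the median log2 difference of their regions, relative to the overall ratio, the marker lists differed in direction between the replicates. Sums of values, which are not scaled by that ratio, were lower in replicate 2 for every list, including those with a positive median. Of 77 shared regions of the 10 erythroid marker genes, 52 were lower in replicate 2, with a median of -0.30, and their values summed to 281 in replicate 1 and 179 in replicate 2. The hepatoblast markers had 9 of 21 regions lower, with a median of 0.17 and sums of 44.2 and 37.5. The megakaryocyte markers had 15 of 26 lower, with a median of -0.19 and sums of 70.4 and 51.1. All 10 erythroid markers had at least 1 shared region, while Alb of the hepatoblast markers and Pf4 of the megakaryocyte markers had none. Stem and progenitor markers had a median of -0.16 and endothelial markers of -0.19. T cell markers had 0.34, mast cell markers 0.24 and stellate and mesenchymal markers 0.13. Single genes of these lists went both ways. Of the T cell markers, Lck (0.32) and Tcf7 (0.62) were higher in replicate 2, and Cd3e (-0.70) and Cd3d (-0.46) were lower. The mast cell median came from 8 regions, with Cma1 lower (-0.58) and the other genes that had a region higher. The part of cell composition in the difference between the replicates was not tested.

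Genes whose products work with the GATA factors were counted in the same way, beside 58.4% of all genes with a shared promoter region, 72.1% with a distal one and a median of 2 distal regions. Of 12 genes for DNA-binding partners and members of their complexes, such as Tal1 and Lmo2, 10 had a shared promoter region and 12 had a distal one, with a median of 5.5 distal regions per gene. Among them the highest promoter values in replicate 1 were those of Lyl1 (17.3, and 9.62 in replicate 2) and Tcf3 (10.2, and 8.42), and the lowest those of Erg (0.316, and 0.670) and Spi1 (1.75, and 1.24), while Fli1 and Gfi1 had no shared promoter region. Of 11 genes of the NuRD and CoREST complexes, the corepressors that FOG1 and GFI1B recruit, 10 had a shared promoter region, from Mta3 (2.23, and 2.499 in replicate 2) to Mbd3 (18.6, and 12.6), Mta1 having none, and 11 had a distal one, with a median of 5. Of the other 6 genes with GATA-type zinc fingers, 5 had a shared promoter region, the highest being those of the NuRD subunit genes Gatad2a (27.0, and 16.6) and Gatad2b (15.7, and 8.78). Gata5, the remaining GATA factor, had 0.354 in replicate 1 and 0.809 in replicate 2 at its promoter and 1 distal shared region.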

How the data were processed

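DNase-seq of 2 libraries of embryonic mouse liver was analysed as 1 group of 2 replicates. The authors deposited, per library, 2 peak lists with a signal value per peak, a list of footprints and a list of bases with their false discovery rate, on build mm10. The deposited signal values have no stated normalization. The deposited false discovery rate list (a p-value corrected for many tests) gives a rate per stretch of bases, counted here where it was under 0.05, and the deposited footprints give their positions. All lists were derived from each library's filtered alignment, per the notes deposited with the files. For the aligner and the callers nothing is stated (not given in the sources used here). The longer peak list was used.

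Every value was a whole multiple of the library's step (100% of peaks within 0.05 of a step), 0.0127 in replicate 1 and 0.00604 in replicate 2. Library totals are not given, so depth is conditional on the values being CPM. Peaks that overlapped by 1 bp or more became 1 region, and footprints were joined the same way. Transcript starts are those of GENCODE M21, and 21884 uniquely named protein-coding genes on 21 chromosomes were used. A promoter region lies within 1 kb of a start. Its percentile is that of the gene's highest value. The motif search covered shared footprints extended by 5 bp, on the GRCm38.p6 sequence from RefSeq. The CTCF core was searched as 1 consensus.

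With 1 group there is no test. Counts stand beside the share over all genes or regions. The labels call the libraries biological replicates but give 1 donor entry, so the spread between them may be partly technical. The members and gene lists were chosen with earlier results of these data known. All 8 members are named, with the highest promoter region and up to 5 distal regions by mean rank of both replicates; other listed genes appear as counts, with at most the 2 highest and the 2 lowest promoter values in replicate 1 for the partner lists. A few further regions and genes without a shared region were named after their values were seen. The functions used were tested on simulated data. Python 3.11.15, numpy 2.4.6, pandas 2.3.3, scipy 1.17.1 and matplotlib 3.10.9 were used.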

Additional observations from a re-analysis of the deposited data

How the results depend on the processing

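The 5 results were recomputed in 32 combinations with other settings, and 19 stayed within their error or within 1.5 times. With the shorter peak lists 3 of the 8 genes had a shared promoter region (Gata1, Gata3 and Zfpm1) and together the 8 had 33 distal shared regions; with the 5′ end of each gene as its only start 3 had one (Zfpm1, Zfpm2 and Gfi1b). The upper 50% of peaks also gave 33 distal regions. With all peaks, 31 of the 50 distal shared regions had the gene itself as the nearest start. The median percentile of the promoter values, 25.3, was 26.8 with the shorter lists and 29.8 with a promoter window of 2.5 kb. Leaving out replicate 1 or 2 gave 6 to 8 genes with a promoter region, 66 to 92 distal regions, percentiles of 23.9 to 29.4, 169 to 417 footprints, and GATA motifs in 5.48% to 16.7% of distal footprints. The share was 15.5% to 21.1% with footprints not extended or extended by 10 bp. No paired analysis was possible because the 2 libraries form 1 group. Distal counts of single genes moved by more than 1.5 times in 29 of 80 cases. The number of footprints limits what shares can show: intervals of genes other than Zfpm1 are wide.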
